A study of Mus musculus with 12 samples.

Results

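The 33 genes described here encode the enzymes and carriers that take pyruvate into the mitochondrion, oxidise it through the citric acid cycle, and move its reducing equivalents across the mitochondrial membrane. They were chosen by name, and all 33 were found among the 29564 gene rows of the deposited tables. All are protein-coding and lie on 15 chromosomes. Their transcripts were measured by sequencing polyadenylated RNA of left ventricles from 12 wild-type C57BL6 mice (C57BL/6J in the study's methods), 1 library per mouse and 4 per group. Control-Veh mice (C1 to C4) were non-failing and received vehicle by mouth. HFpEF-Veh mice (V1 to V4) carried an induced heart failure with preserved ejection fraction (HFpEF), made by combining a high-fat diet with L-NAME, an inhibitor of nitric oxide synthase, and received the same vehicle. HFpEF-TYA-018 mice (T1 to T4) had the same model and received TYA-018, which inhibits the cytoplasmic deacetylase HDAC6, at 15 mg/kg by mouth. The series title speaks of a single dose while the label text on treatment speaks of daily dosing over weeks, so the length of treatment is not settled by the labels. The paper describes a long-term RNA experiment that also had an empagliflozin group and more mice per group. It describes another in which hearts were taken hours after 1 dose of vehicle or TYA-018. The 12 libraries here include no empagliflozin group, so they match the single-dose design more closely. No group received TYA-018 without the model, diet and L-NAME were always given together, and the labels gave neither age nor sex (the study's methods name male mice). The animal numbers lie together within each group and the labels name no batch, so the group and any factor that ran with those numbers cannot be told apart.

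Pyruvate comes from glucose and lactate and enters the mitochondrion through a carrier made of MPC1 and MPC2. The pyruvate dehydrogenase (PDH) complex then converts it to acetyl-CoA, and is switched off by PDH kinases and on by PDH phosphatases. Acetyl-CoA is oxidised in the citric acid cycle, pyruvate carboxylase and the malic enzymes exchange carbon between pyruvate and cycle intermediates, and the malate-aspartate shuttle carries the reducing equivalents of cytosolic NADH into the mitochondrion. The heart draws most of its energy from fatty acids, whose acetyl-CoA joins at the cycle as that of ketone bodies does, while glucose and lactate come in through pyruvate.

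The libraries held between 61.2 and 83.9 M (1e06) estimated counts. Levels in CPM (counts scaled to 1e06 per library) are after scaling by the trimmed mean of M values, and a gene was called when the edgeR quasi-likelihood adjusted p over 14333 tested genes was under 0.05. Mitochondrially encoded genes took 37.04% to 40.6% of counts in the controls, 43.1% to 47.7% in the HFpEF-Veh mice and 35.4% to 41.2% with TYA-018. Leaving them out changed the number of members called in none of the 3 comparisons, though between the HFpEF groups the call of Pdp2 was lost and Idh2 was called. Markers of heart muscle cells (8 of 8 tested) were abundant, with a summed level of 27489.9 to 38574 CPM in the controls, 25485 to 27075 CPM in the HFpEF-Veh mice and 29092 to 32000.5 CPM with TYA-018. Of these 8 markers, 6 were called lower and 1 higher in HFpEF-Veh relative to Control-Veh, and 3 were called higher and 0 lower in HFpEF-TYA-018 than in HFpEF-Veh. Over all tested genes, 10.9% were called higher and 10.3% lower in the first of these comparisons, and 8.93% and 10.4% in the second. The summed red cell markers (5 of 5 tested) ran from 1553 to 2309 CPM in the controls, from 4785 to 14139 CPM in the HFpEF-Veh mice and up to 3572 CPM with TYA-018, where their mean was 2911 ± 569 CPM. Macrophage markers (5 of 6 had a row) summed to 76.2 to 89.9, 117 to 151 and 81.6 to 95.4 CPM in the same order. Fibroblast markers (6 of 6) summed to 569 to 973, 923 to 1335 and 600.4 to 944 CPM, and endothelial markers (6 of 6) to 1377 to 1562, 1567 to 1880 and 1297 to 1541 CPM. Smooth muscle and pericyte markers (6 of 6) summed to 685 to 829, 829 to 901 and 614 to 777 CPM. In HFpEF-Veh, 5 red cell, 5 macrophage, 2 fibroblast, 3 endothelial and 1 of these smooth muscle and pericyte markers were called higher than in Control-Veh. With TYA-018, 5, 3, 3, 4 and 1 were called lower than in HFpEF-Veh. Adipocyte markers (2 of 5 tested) summed to at most 1.94 CPM in any library, and 0 were called. Liver markers (5 of 5) summed to 27.4 to 80.7, 3.39 to 14.7 and 3.86 to 67.5 CPM, and 4 of them were called lower in HFpEF-Veh relative to Control-Veh. Atrial markers (3 of 4 tested) summed to 127 to 244, 61.8 to 147 and 139 to 164 CPM, and 1 of them, Nppa, was called lower in HFpEF-Veh (log2 fold change -0.77, adjusted p 0.0458 by edgeR). Nppa made up nearly all of this sum in the controls (a mean of 191 of 193 CPM). Myl4 and Myl7 had control means of 2.34 and 0.186 CPM and were not called in that comparison. In whole ventricle, fewer cells of a type and less RNA per cell cannot be told apart, and the part of these cell type markers in the results below was not tested.

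In the model given vehicle, 7 of the 33 genes were lower than in Control-Veh and 1 was higher. The genes that fell were Mpc1, Pdk2, Pcx, Ldhb, Idh2, Got2 and Me3, and the gene that rose was Me1. Over all tested genes 21.2% were called in this comparison, 10.9% higher and 10.3% lower. Of the 11 citric acid cycle genes, 0 passed edgeR's threshold (3 had an unadjusted p under 0.05), and DESeq2 called 1 of them, Cs. The median log2 fold change was -0.12 over the members against -0.01 over all tested genes, and 25 of the 33 were below 0. Without library C1, the lowest control for 26 of the 33 genes, 14 members were called, 13 of them lower. The share of all genes called in that fit is not given, so the 14 cannot be set against it. With effective lengths as an offset 3 were called (Pcx, Ldhb and Me1, with 10.1% of all genes), on the study's rescaled TPM scale 2 (Pcx and Ldhb, with 7.93%), and on the other 3 TPM scales 0 (with at most 2.10%).

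With TYA-018 in the same model, 19 of the 33 genes were higher than in HFpEF-Veh and 0 were lower, where 8.93% of all tested genes were called higher and 10.4% lower. These 19 held 8 of the 11 citric acid cycle genes, 3 of the 5 PDH complex genes and 2 of the 3 genes of the malate-aspartate shuttle. The median log2 fold change was 0.27 over the members and 0.00 over all tested genes, with 30 of 33 above 0. The count of called members fell to 11 without library T1 and to 12 without T2, fits for which the share of all genes is not given. It fell to 7 when the effective lengths of the genes entered as an offset and to 5 on the study's rescaled TPM scale, with 0 members called lower in both. The share of all genes called fell as well, from 19.3% to 8.49% and 5.56%. In both settings the calls of Mpc2, Pdha1, Pdhb, Pdhx, Ldhb, Idh3b, Suclg1, Sucla2, Fh1, Idh1, Mdh1 and Got2 were lost, and the direction of Idh3b turned.

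Between HFpEF-TYA-018 and Control-Veh, 3 of the 33 genes were called, all higher in HFpEF-TYA-018: Pdk1, Idh1 and Me1. Over all genes 5.86% were called, 3.12% higher and 2.74% lower. The median log2 fold change of the members was 0.15 against -0.02 over all tested genes, and 26 of 33 were above 0. DESeq2 called 12 members higher and 0 lower, and 10.6% of all genes. The first 2 comparisons share the HFpEF-Veh libraries, so a low HFpEF-Veh value enters both with opposite sign, and the fold changes below are given side by side without a test of their likeness.

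**Figure D1:**
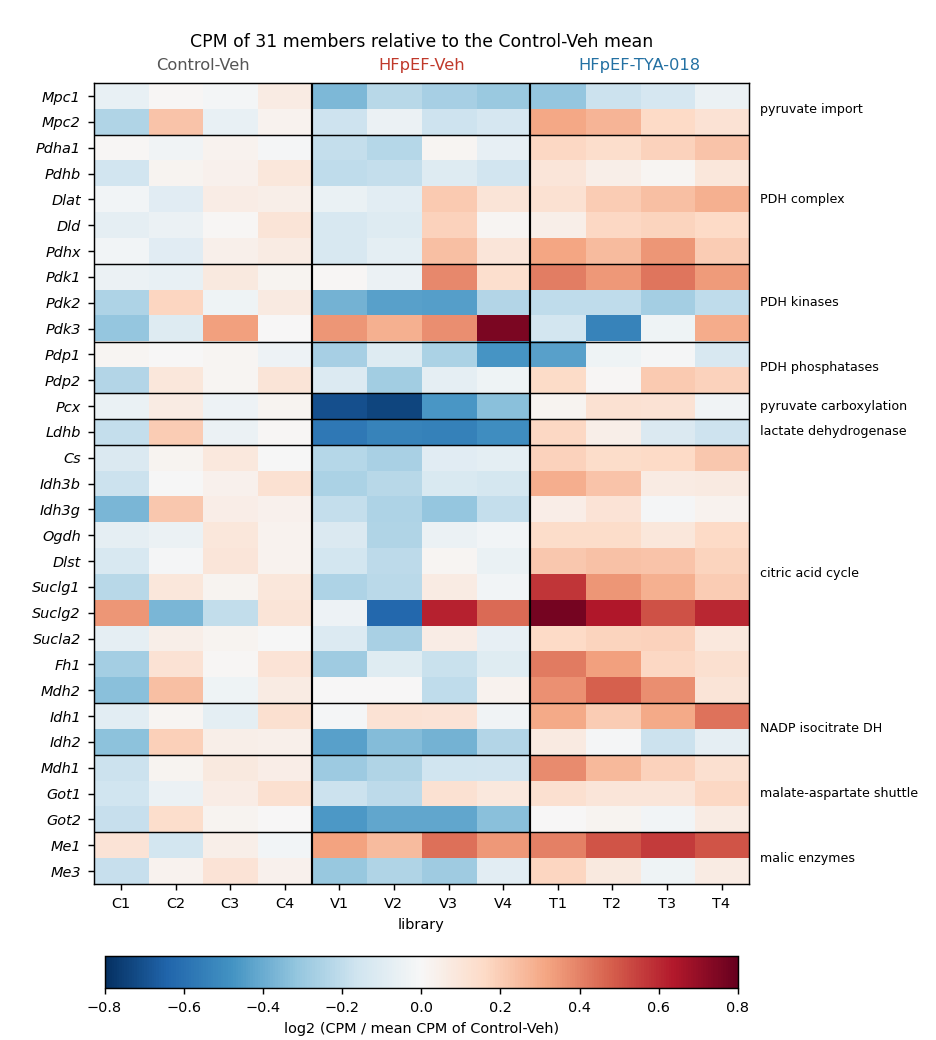
Each row is 1 of 31 members, grouped by role, and each column 1 library. Colour gives the log2 ratio of CPM to the Control-Veh mean, from -0.8 (blue) to 0.8 (red). Ldhb, Got2 and Pcx are blue in all 4 HFpEF-Veh libraries, Me1 is red in all 8 libraries of the model, and most cycle genes are red in HFpEF-TYA-018. Idh3a and Ldha have their own plot.

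**Figure D2:**
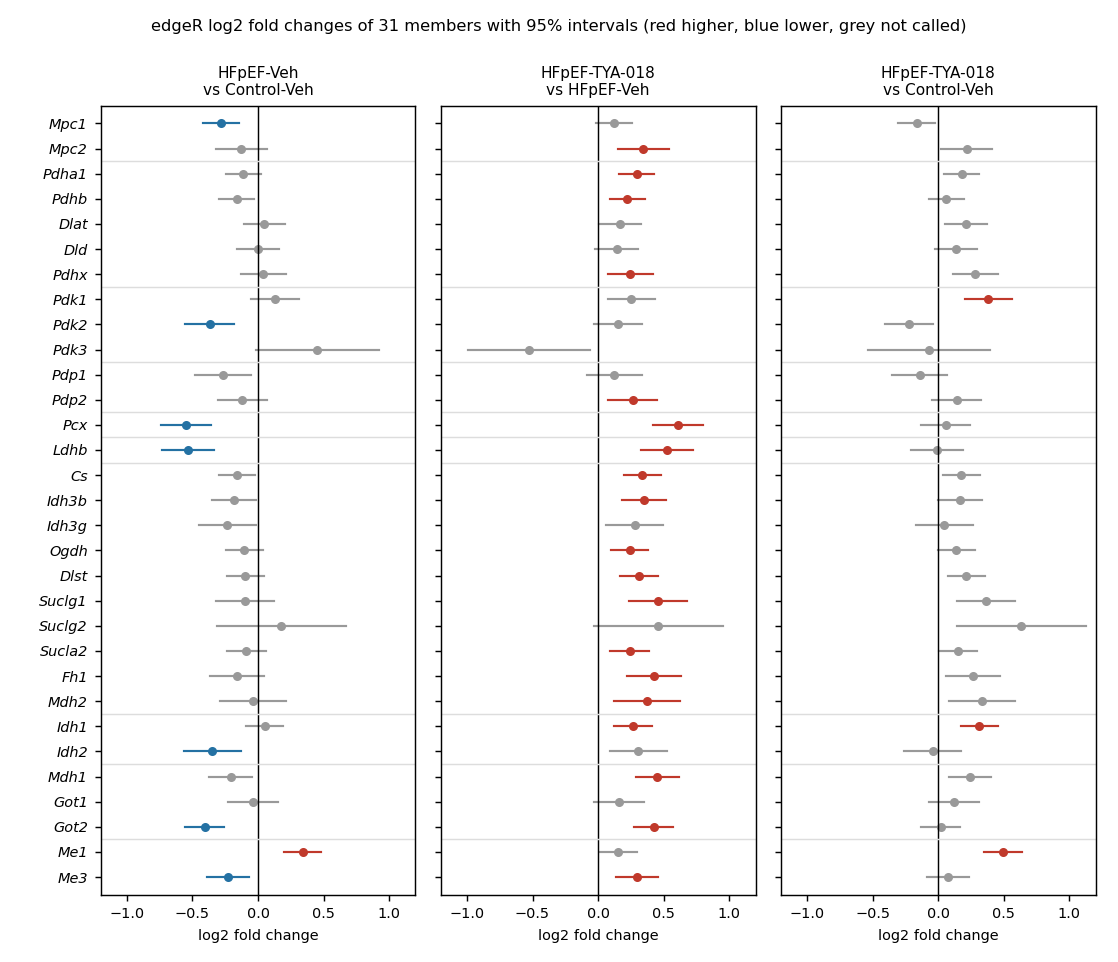
Points are edgeR log2 fold changes of the same 31 members and lines their 95% intervals, in the 3 comparisons. Red marks genes called higher, blue genes called lower, and grey genes not called. The middle panel holds 19 red genes and 0 blue ones.

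Measured per length, the members spanned a wide range in Control-Veh. The deposited TPM scale divides by effective length and scales each library, and its gene rows summed to between 937748 and 963745 TPM per library. On this scale, Idh2 had the highest mean level at 791 ± 131 TPM, followed by Ldhb at 523 ± 104 TPM (SD, n = 4). Mdh1 and Mpc1 were next, both at 320 TPM, and the libraries of Mdh1 (199 to 400.1 TPM) enclosed those of Mpc1 (306 to 334 TPM). At the low end stood Pcx at 1.09 ± 0.0900 TPM, the phosphatase gene Pdp2 at 0.561 ± 0.0714 TPM and the kinase gene Pdk3 at 0.294 ± 0.133 TPM. The median SD of log2 CPM within groups was 0.12 over the members and 0.16 over all tested genes. Idh3a and Ldha had far larger SDs and are described with their partners below.

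The 2 genes of the pyruvate carrier were called in different comparisons. The log2 ratio Mpc1/Mpc2 of counts gave two-sided exact permutation p of 0.143, 0.0857 and 0.0571 in the 3 comparisons (adjusted p 0.245, 0.171 and 0.137). The smallest p that 4 against 4 libraries allow, 0.0286, had an adjusted p of 0.114 among the ratio tests. These tests therefore cannot decide whether the 2 genes changed differently. Mpc1 (chr17:8282904-8297661, all gene positions from GENCODE M21 on GRCm38) stood at 259, 272, 267 and 283 CPM in C1 to C4, 211, 231, 225 and 221 CPM in V1 to V4, and 218, 239.6, 246 and 261 CPM in T1 to T4. All 4 HFpEF-Veh libraries were below all 4 Control-Veh libraries, and the HFpEF-TYA-018 libraries overlapped both groups. The fall in HFpEF-Veh passed the test (log2 fold change -0.28, SE 0.06, adjusted p 0.00948 by edgeR), and the log2 change with TYA-018 was 0.12 (95% interval -0.02 to 0.26). Mpc2 (chr1:165460637-165481214) stood at 171, 237, 195 and 207 CPM in C1 to C4, 180.5, 196, 180.4 and 184 CPM in V1 to V4, and 251, 244, 226 and 219 CPM in T1 to T4. The 4 HFpEF-TYA-018 libraries were above the 4 HFpEF-Veh libraries (log2 fold change 0.34, SE 0.09, adjusted p 0.0203 by edgeR), while the Control-Veh libraries spanned the HFpEF-Veh range. The call of Mpc2 was lost without V3, T1 or T2.

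The PDH complex is built from a decarboxylase (alpha subunit Pdha1, beta subunit Pdhb), an acetyltransferase (Dlat), a dihydrolipoamide dehydrogenase that it shares with other complexes (Dld), and a binding protein that holds the last in place (Pdhx). None of the 5 genes was called between HFpEF-Veh and Control-Veh by edgeR (Pdhb had an unadjusted p under 0.05, and DESeq2 called it lower). With TYA-018, Pdha1, Pdhb and Pdhx rose. Pdha1 (chrX:160122209-160138413) stood at 475, 463, 481 and 468 CPM in C1 to C4, 414, 403, 477 and 450.1 CPM in V1 to V4, and 530.1, 519.7, 537 and 552 CPM in T1 to T4. The HFpEF-TYA-018 values were above those of both other groups without overlap (log2 fold change 0.29, SE 0.06, adjusted p 0.00774 by edgeR against HFpEF-Veh), and against Control-Veh the log2 change was 0.18 with an adjusted p of 0.108 by edgeR. With lengths as an offset and on rescaled TPM the log2 change of Pdha1 against HFpEF-Veh was 0.15 and 0.13 and not called (adjusted p 0.206 by edgeR and 0.411 by limma). Pdhb (chr14:8165996-8173025) stood at 319, 359.8, 364 and 377 CPM in C1 to C4, 308, 311, 330.4 and 320.0 CPM in V1 to V4, and 379, 366, 358 and 378 CPM in T1 to T4, with the HFpEF-TYA-018 libraries above the HFpEF-Veh libraries and inside or just above the control range (log2 fold change 0.22, SE 0.06, adjusted p 0.0252 by edgeR). Pdhx (chr2:103021075-103073513) stood at 56.2, 53.8, 58.7 and 59.9 CPM in C1 to C4, 52.3, 54.1, 67.4 and 61.2 CPM in V1 to V4, and 71.3, 68.1, 73.1 and 65.9 CPM in T1 to T4. Only V3 reached into the HFpEF-TYA-018 range, and the call was close to the threshold (log2 fold change 0.24, SE 0.08, adjusted p 0.0462 by edgeR). It was lost in 6 of the 8 fits that left out a library, and that of Pdhb in 5 of 8. Dlat and Dld were not called, with log2 changes of 0.17 (95% interval 0.01 to 0.32) and 0.14 (95% interval -0.02 to 0.30) against HFpEF-Veh.

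Among the PDH kinases, which phosphorylate and switch off the complex, Pdk2 was called lower in HFpEF-Veh and Pdk1 higher in HFpEF-TYA-018, both relative to Control-Veh. Pdk2 (chr11:95026258-95041354) stood at 311, 416, 360.1 and 388 CPM in C1 to C4, 283, 273, 272 and 314 CPM in V1 to V4, and 319.7, 321, 305 and 321 CPM in T1 to T4. The HFpEF-Veh values were below those of Control-Veh but for C1, which fell under V4 (log2 fold change -0.37, SE 0.08, adjusted p 0.0102 by edgeR). The direction of Pdk2 turned in 2 settings, to a log2 change of 0.015 with effective lengths as an offset and 0.023 on the rescaled TPM scale, while on log2(TPM + 1) it was -0.23 with an adjusted p of 0.634 by limma. The effective length of Pdk2 was 2547 bases in V3 and 3958 to 4894 bases in the other HFpEF-Veh libraries. Pdk1 (chr2:71873224-71903858) stood at 60.98, 60.5, 66.6 and 64.1 CPM in C1 to C4, 63.5, 60.95, 82.2 and 69.1 CPM in V1 to V4, and 83.6, 80.2, 84.7 and 79.8 CPM in T1 to T4. All 4 HFpEF-TYA-018 libraries were above the control libraries (log2 fold change 0.38, SE 0.08, adjusted p 0.0234 by edgeR), V3 reached the same level, and the change against HFpEF-Veh did not pass (0.25 with an adjusted p of 0.0514 by edgeR). The call of Pdk1 against Control-Veh was lost in 5 of 8 fits that left out a library, with lengths as an offset and on the TPM scales. Pdk3 was low at 0.882 to 1.37 CPM in the controls, 1.33 to 1.84 CPM in the HFpEF-Veh mice and 0.755 to 1.34 CPM with TYA-018, and was called in 0 comparisons. Pdk4, the isoform that fasting and fatty acids induce, was not a member but belongs to the same family. It stood at 588, 434, 448 and 438 CPM in C1 to C4, 360.3, 244, 345 and 305 CPM in V1 to V4, and 290.2, 160.4, 248 and 352 CPM in T1 to T4, and HFpEF-TYA-018 was lower than Control-Veh (log2 fold change -0.86, SE 0.21, adjusted p 0.0322 by edgeR) without overlap. Against Control-Veh the change in HFpEF-Veh was -0.61 with an adjusted p of 0.0537 by edgeR.

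The PDH phosphatases remove those phosphates. Pdp2 (chr8:104591451-104599026) stood at 13.6, 17.1, 16.3 and 17.3 CPM in C1 to C4, 14.9, 13.2, 15.3 and 15.7 CPM in V1 to V4, and 17.9, 16.1, 18.6 and 18.3 CPM in T1 to T4. Its HFpEF-TYA-018 libraries were above the HFpEF-Veh libraries, with an adjusted p just under the threshold (log2 fold change 0.26, SE 0.09, adjusted p 0.0493 by edgeR), and the call was lost whichever of the 8 libraries was left out. Pdp1 was at 14.5 to 15.1 CPM in the controls and 10.8 to 13.9 CPM in the HFpEF-Veh mice, which did not overlap, with a log2 change of -0.27 with an adjusted p of 0.0683 by edgeR. In HFpEF-TYA-018 it was at 11.1 to 14.9 CPM.

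Pcx, Ldhb, Got2 and Me3 were called lower in HFpEF-Veh and higher in HFpEF-TYA-018. Pcx (chr19:4510472-4621752) encodes pyruvate carboxylase, which makes oxaloacetate from pyruvate and refills the cycle. It stood at 16.8, 18.3, 16.98 and 17.7 CPM in C1 to C4, 10.7, 10.5, 12.6 and 13.9 CPM in V1 to V4, and 17.7, 18.97, 18.9 and 17.1 CPM in T1 to T4. The 4 HFpEF-Veh libraries were below the 8 others. Its mean was 17.5 ± 0.680 CPM in the controls and 11.9 ± 1.61 CPM in the HFpEF-Veh mice (log2 fold change -0.55, SE 0.09, adjusted p 0.00168 by edgeR), and 18.2 ± 0.913 CPM with TYA-018 (log2 fold change 0.61, SE 0.09, adjusted p 0.00144 by edgeR; SD, n = 4). Against HFpEF-Veh the call held in all 10 alternatives that kept every library and in all 8 fits that left one out. The log2 difference between HFpEF-TYA-018 and Control-Veh was 0.06 (95% interval -0.13 to 0.24).

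Ldhb (chr6:142490249-142507957) encodes the lactate dehydrogenase subunit that prevails in heart and is linked to the use of lactate as fuel. It stood at 730.3, 961, 807 and 838 CPM in C1 to C4, 562, 576, 575 and 590.2 CPM in V1 to V4, and 934, 861, 769 and 743 CPM in T1 to T4. The HFpEF-Veh libraries lay close together and below all others. The change was log2 fold change -0.54, SE 0.09, adjusted p 0.00234 by edgeR against Control-Veh, and HFpEF-TYA-018 against HFpEF-Veh gave log2 fold change 0.52, SE 0.09, adjusted p 0.0035 by edgeR. Between HFpEF-TYA-018 and Control-Veh the log2 difference was -0.01 (95% interval -0.21 to 0.19). Got2 (chr8:95864134-95888547) encodes the mitochondrial aspartate aminotransferase of the malate-aspartate shuttle. It stood at 547, 686, 631 and 623 CPM in C1 to C4, 453, 467, 466 and 492 CPM in V1 to V4, and 624, 632, 612 and 652 CPM in T1 to T4, and here too HFpEF-Veh lay below the 8 other libraries (log2 fold change -0.41, SE 0.07, adjusted p 0.0023 by edgeR; HFpEF-TYA-018 against HFpEF-Veh, log2 fold change 0.42, SE 0.07, adjusted p 0.00259 by edgeR). With lengths as an offset, Got2 was called in neither comparison and Ldhb only in the first. Ldhb shares 33.02% and Got2 20.3% of their 31-base stretches with transcripts of other annotated genes. Suclg2 (20.6%), Pdhb (17.4%) and Mpc1 (12.6%) also share over 10%. For all of these, the division of reads among genes adds uncertainty to their levels.

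**Figure D3:**
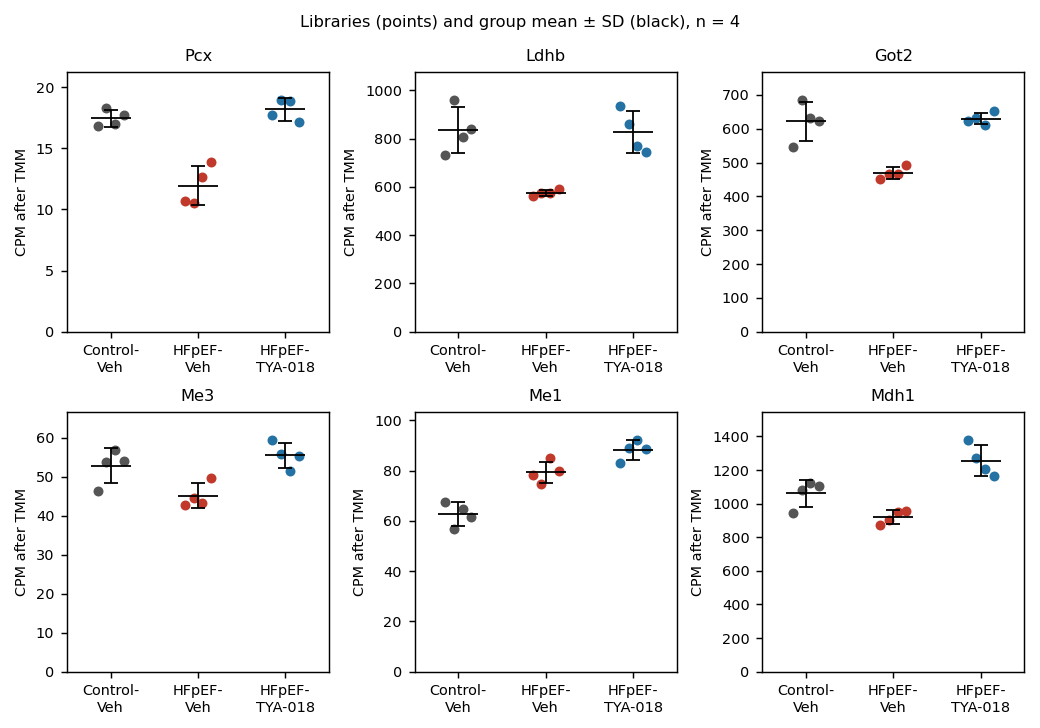
CPM (vertical axis, from 0) of 6 members in each library, with the group mean and SD in black (n = 4 per group). Pcx, Ldhb and Got2 are lower in the 4 HFpEF-Veh libraries than in the 8 others, Me1 is higher in both groups of the model than in Control-Veh, and Mdh1 is highest in HFpEF-TYA-018.

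The promoter stretches of these genes are shown because their transcripts moved in the same directions, together with that of Idh3g, which held a pair of the motifs searched. They come from RefSeq (GRCm38.p6), are written 5′ to 3′ on the strand of the gene, and hold no annotated exon. Me3 is not printed. Capitals mark motif matches.
Pcx, chr19:4510352-4510471, plus strand: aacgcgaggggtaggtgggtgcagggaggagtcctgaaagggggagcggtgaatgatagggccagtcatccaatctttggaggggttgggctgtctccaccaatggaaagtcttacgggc
Ldhb, chr6:142507958-142508077, minus strand: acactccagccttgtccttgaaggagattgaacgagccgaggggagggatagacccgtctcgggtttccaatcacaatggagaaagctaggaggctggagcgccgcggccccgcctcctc
Got2, chr8:95888548-95888651, minus strand: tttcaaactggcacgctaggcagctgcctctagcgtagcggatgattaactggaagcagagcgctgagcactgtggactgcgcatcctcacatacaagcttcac
Idh3g, chrX:73786898-73787027, minus strand: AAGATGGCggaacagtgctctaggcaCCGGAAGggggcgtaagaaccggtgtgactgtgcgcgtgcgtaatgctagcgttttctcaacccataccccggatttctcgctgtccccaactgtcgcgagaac
Windows from 250 bases before to 50 after the start were searched on both strands for TCAAGGTCA (the site of estrogen-related receptors), AGGTCA repeated after 1 further base (the site of PPAR and RXR), GCGC and TGCGC with 1 base between (NRF1), CCGGAAG (ETS factors such as GABP) and AAGATGGC (YY1). The table held 43 windows of 31 members and 32851 windows in all. TCAAGGTCA and the repeat of AGGTCA were in 0 member windows and in 0.423% and 0.0396% of all windows. The NRF1 motif was in the windows of Dld, Ldha and Sucla2 (6.98% of member windows, 4.60% of all). CCGGAAG was in those of Dlst, Idh3b, Idh3g and Mpc1 (9.30% against 8.86%), and AAGATGGC in that of Idh3g (2.33% against 2.75%). The windows of Pcx, Ldhb, Got2 and Me3 held 0 of the 5 motifs in these letters. The median GC content was 61.3% over member windows and 52.7% over all windows, which include genes not expressed in heart.

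Of the malic enzymes, which convert malate to pyruvate and make NADPH or NADH, Me1 and Me3 went opposite ways in the model. Me1 (chr9:86581371-86695953), the cytosolic NADP enzyme, stood at 67.6, 56.6, 64.7 and 61.7 CPM in C1 to C4, 78.2, 74.7, 84.9 and 79.8 CPM in V1 to V4, and 82.9, 88.95, 92.3 and 88.7 CPM in T1 to T4. All 8 libraries of the model were above all 4 control libraries. The change against the controls was log2 fold change 0.34, SE 0.07, adjusted p 0.00427 by edgeR with vehicle and log2 fold change 0.49, SE 0.07, adjusted p 0.0027 by edgeR with TYA-018, and the step between the HFpEF groups was 0.15 with an adjusted p of 0.123 by edgeR. On TPM scales Me1 was not called between HFpEF-Veh and Control-Veh. Me1 shares 30.0% of its 31-base stretches with other transcripts. Me3 (chr7:89632392-89854359), the mitochondrial NADP enzyme, stood at 46.4, 53.7, 56.9 and 53.97 CPM in C1 to C4, 42.8, 44.6, 43.3 and 49.7 CPM in V1 to V4, and 59.5, 55.7, 51.5 and 55.3 CPM in T1 to T4. C1 was within the HFpEF-Veh range, and the fall was near the threshold (log2 fold change -0.23, SE 0.07, adjusted p 0.0469 by edgeR) and lost in 6 of 8 fits that left out a library. The HFpEF-TYA-018 libraries were all above the HFpEF-Veh libraries (log2 fold change 0.30, SE 0.07, adjusted p 0.0162 by edgeR), and that call held in the 10 alternatives that kept every library and was lost without T1 (adjusted p 0.0536 by edgeR).

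Of the citric acid cycle genes, none was called by edgeR in the model given vehicle and most rose with TYA-018, as counted above. Cs (chr10:128337734-128362479), which encodes citrate synthase at the entry of the cycle, stood at 660.1, 725, 757 and 714 CPM in C1 to C4, 611, 597, 671 and 677 CPM in V1 to V4, and 812, 790.1, 797 and 830.2 CPM in T1 to T4. HFpEF-TYA-018 was above all 8 other libraries. The change was log2 fold change 0.34, SE 0.06, adjusted p 0.00504 by edgeR against HFpEF-Veh, and against Control-Veh it was 0.18 with an adjusted p of 0.125 by edgeR. Idh3a, Idh3b and Idh3g encode the subunits of the NAD isocitrate dehydrogenase. Idh3b (chr2:130279309-130284547) stood at 379, 426, 439 and 466 CPM in C1 to C4, 359.5, 367, 394 and 388 CPM in V1 to V4, and 524, 501, 447 and 449.6 CPM in T1 to T4, with HFpEF-TYA-018 above HFpEF-Veh (log2 fold change 0.35, SE 0.08, adjusted p 0.0098 by edgeR). The direction of Idh3b turned in 2 settings, to a log2 change of -0.27 with lengths as an offset and -0.28 on the rescaled TPM scale, while on log2(TPM + 1) it was 0.17 with an adjusted p of 0.333 by limma. The effective length of Idh3b was 1431 to 2040 bases in HFpEF-Veh and 2061 to 2913 bases in HFpEF-TYA-018. Idh3g was at 342 to 512 CPM in the controls, 355 to 386 CPM in the HFpEF-Veh mice and 438 to 476 CPM with TYA-018. Its HFpEF-TYA-018 libraries were above the HFpEF-Veh libraries, and the test gave 0.28 with an adjusted p of 0.0681 by edgeR.

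The 2-oxoglutarate dehydrogenase complex takes the next oxidative step. Ogdh (chr11:6291633-6356642), its decarboxylase, stood at 1198, 1219, 1344 and 1284 CPM in C1 to C4, 1163, 1066, 1222 and 1242 CPM in V1 to V4, and 1396, 1398, 1346 and 1409 CPM in T1 to T4. HFpEF-TYA-018 was above both groups, by a narrow margin over C3 (log2 fold change 0.24, SE 0.06, adjusted p 0.0226 by edgeR against HFpEF-Veh). Against Control-Veh the log2 change of Ogdh was 0.14 with an adjusted p of 0.231 by edgeR. The call of Ogdh was lost in 4 of 8 fits that left out a library, with no low-count filter and on rescaled TPM. Dlst (chr12:85110833-85134845), the succinyltransferase of the complex, stood at 276, 300.4, 324 and 309 CPM in C1 to C4, 273, 261, 305 and 291 CPM in V1 to V4, and 351, 356, 354 and 342 CPM in T1 to T4. The HFpEF-TYA-018 libraries lay close together above the 8 others (log2 fold change 0.31, SE 0.07, adjusted p 0.00836 by edgeR), and the call held in all 10 alternatives with every library and in all 8 without one. Against Control-Veh the log2 change of Dlst was 0.21 with an adjusted p of 0.0787 by edgeR.

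Succinyl-CoA ligase joins the alpha subunit Suclg1 with either of the beta subunits Sucla2 (ATP-forming) and Suclg2 (GTP-forming). Suclg1 (chr6:73248382-73276911) stood at 157, 195, 186 and 195 CPM in C1 to C4, 155, 158, 192 and 181 CPM in V1 to V4, and 273, 235, 223 and 212 CPM in T1 to T4. All 4 HFpEF-TYA-018 libraries were above the 8 others (log2 fold change 0.46, SE 0.10, adjusted p 0.00983 by edgeR against HFpEF-Veh), and the change against Control-Veh was 0.36 with an adjusted p of 0.0579 by edgeR. Sucla2 (chr14:73525319-73596142) stood at 266, 290.0, 285 and 280.2 CPM in C1 to C4, 260.0, 234, 292 and 267 CPM in V1 to V4, and 313, 317, 318 and 297 CPM in T1 to T4. Its HFpEF-TYA-018 libraries were again above the rest (log2 fold change 0.24, SE 0.07, adjusted p 0.0281 by edgeR against HFpEF-Veh), and that call was lost in 6 of 8 fits without a library. Against Control-Veh the log2 change of Sucla2 was 0.15 with an adjusted p of 0.211 by edgeR. Suclg2 was at 38.4 to 63.00 CPM in the controls, 31.9 to 75.6 CPM in the HFpEF-Veh mice and 70.2 to 84.2 CPM with TYA-018. It varied more within groups than 92.4% of tested genes and was called in 0 comparisons, with a log2 change of 0.46 (95% interval -0.03 to 0.95) against HFpEF-Veh.

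Fh1 (chr1:175600374-175625635), which encodes fumarase, stood at 218, 286, 265 and 285 CPM in C1 to C4, 216, 246, 233 and 246 CPM in V1 to V4, and 351, 331, 295 and 288 CPM in T1 to T4. HFpEF-TYA-018 was above both other groups (log2 fold change 0.43, SE 0.10, adjusted p 0.0102 by edgeR against HFpEF-Veh), and the change against Control-Veh was 0.26 with an adjusted p of 0.125 by edgeR. Mdh2 (chr5:135778480-135790398), the mitochondrial malate dehydrogenase that closes the cycle, stood at 627, 936, 773 and 827 CPM in C1 to C4, 794, 793, 688 and 806 CPM in V1 to V4, and 1017, 1102, 1022 and 850.0 CPM in T1 to T4. The HFpEF-TYA-018 libraries were above the HFpEF-Veh libraries, and the control libraries were spread from below to above the HFpEF-Veh range (log2 fold change 0.37, SE 0.12, adjusted p 0.0418 by edgeR). The call of Mdh2 was lost in 7 of 8 fits that left out a library. Fh1, Cs, Idh3b, Dlst and Suclg1 were called in every one of those 8 fits. With lengths as an offset and on rescaled TPM the log2 change of Fh1 was 0.20 and 0.18 and not called (adjusted p 0.376 by edgeR and 0.3002 by limma), and Suclg1 was not called either. Cs was not called on rescaled TPM.

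The NADP isocitrate dehydrogenases make NADPH, Idh1 in the cytosol and peroxisomes and Idh2 in mitochondria. Idh2 (chr7:80094846-80115392) stood at 1415, 2020.1, 1829.6 and 1827 CPM in C1 to C4, 1312, 1392, 1362 and 1508 CPM in V1 to V4, and 1865, 1761, 1574 and 1689 CPM in T1 to T4. C1 lay inside the HFpEF-Veh range and the other 3 controls above it (log2 fold change -0.35, SE 0.10, adjusted p 0.0287 by edgeR), and the call was lost in 6 of 8 fits that left out a library. The HFpEF-TYA-018 libraries were above the HFpEF-Veh libraries with an adjusted p just over the threshold (0.31 with an adjusted p of 0.051 by edgeR). Idh1 (chr1:65158616-65186500) stood at 28.1, 30.2, 28.2 and 32.6 CPM in C1 to C4, 29.7, 32.3, 32.1 and 29.3 CPM in V1 to V4, and 36.8, 34.3, 36.8 and 40.3 CPM in T1 to T4. The HFpEF-TYA-018 libraries were above all others, and the rise passed against both groups (log2 fold change 0.27, SE 0.07, adjusted p 0.0173 by edgeR for HFpEF-Veh, and log2 fold change 0.31, SE 0.07, adjusted p 0.0203 by edgeR for Control-Veh). The call against HFpEF-Veh was lost without V4, with lengths as an offset and on rescaled TPM, and that against Control-Veh without C3, with lengths as an offset and on the TPM scales.

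In the malate-aspartate shuttle, Mdh1 (chr11:21556787-21572367), the cytosolic malate dehydrogenase, stood at 944, 1081, 1123 and 1103 CPM in C1 to C4, 870.0, 901, 953 and 954 CPM in V1 to V4, and 1380.5, 1274, 1207 and 1164 CPM in T1 to T4. HFpEF-TYA-018 was above all 8 other libraries, and HFpEF-Veh overlapped Control-Veh at C1. The change was log2 fold change 0.45, SE 0.08, adjusted p 0.00286 by edgeR against HFpEF-Veh, while HFpEF-Veh against Control-Veh gave -0.21 with an adjusted p of 0.0656 by edgeR. HFpEF-TYA-018 against Control-Veh gave 0.24 with an adjusted p of 0.0804 by edgeR. Got1, the cytosolic aspartate aminotransferase and partner of Got2, was at 354 to 431 CPM in the controls, 341 to 430.1 CPM in the HFpEF-Veh mice and 422 to 444 CPM with TYA-018, and was called in 0 comparisons. Its log2 changes were -0.04 (95% interval -0.23 to 0.15) in HFpEF-Veh against Control-Veh and 0.16 (95% interval -0.03 to 0.35) in HFpEF-TYA-018 against HFpEF-Veh.

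Idh3a and Ldha varied widely within groups and were called in 0 comparisons with all libraries in the fit. Idh3a (chr9:54586334-54604661) was listed at 0 counts in C1 and T1, and stood at 0, 156, 33.8 and 106 CPM in C1 to C4, 76.9, 29.9, 24.9 and 123 CPM in V1 to V4, and 0, 39.1, 52.8 and 10.9 CPM in T1 to T4. Its partners Idh3b and Idh3g varied at most 1.46 and 1.497 times over the 12 libraries. Ldha (chr7:46841475-46855627), the muscle-type lactate dehydrogenase subunit, stood at 5.33, 58.1, 70.6 and 42.7 CPM in C1 to C4, 3.35, 88.1, 213 and 222 CPM in V1 to V4, and 89.97, 75.7, 90.1 and 83.1 CPM in T1 to T4, a span of 66.1 times, against 1.71 times for Ldhb. The effective length of Ldha went from 379 bases in C1 and 408 bases in V1, its lowest libraries, to 4269 bases in V4, its highest. The within-group SD of log2 CPM was above that of 99.99% of tested genes for Idh3a and 99.8% for Ldha. Ldha shares 19.6% of its 31-base stretches with other transcripts, and Idh3a shares none of those counted in GENCODE M21. The estimated counts of Idh3a were nevertheless fractional (such as 9671.22 in C2 and 7260.81 in C4), while those of Idh3b and Idh3g were whole. The part of read assignment in the values of Idh3a and Ldha was not tested. Per length, Ldha was at 5.24 to 7.62 TPM in the controls, 2.60 to 22.2 TPM in the HFpEF-Veh mice and 14.1 to 43.7 TPM with TYA-018. Its HFpEF-TYA-018 libraries were above the control libraries on both scales, and the test on counts gave 0.94 with an adjusted p of 0.573 by edgeR. Without V1, Ldha was called higher in HFpEF-Veh, relative to Control-Veh (log2 fold change 1.99, adjusted p 0.041 by edgeR).

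**Figure D4:**
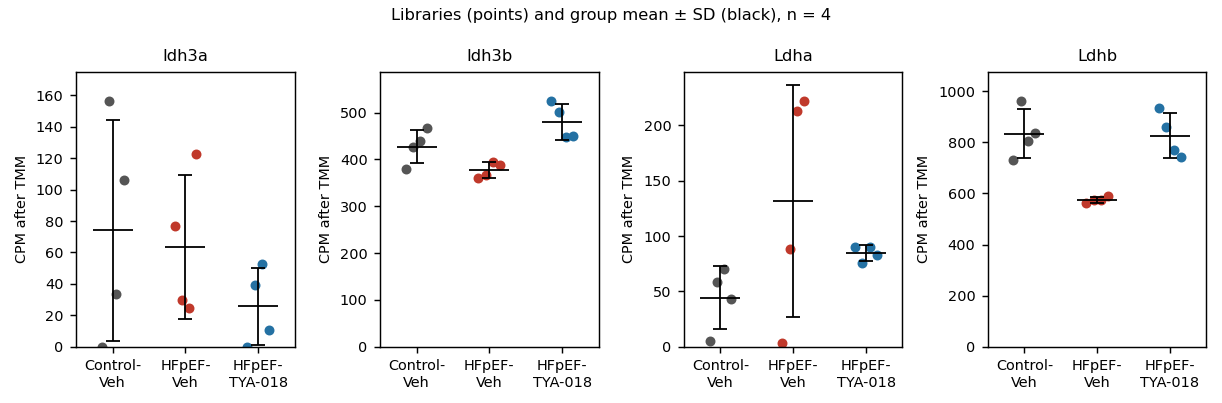
CPM (vertical axis, from 0) of Idh3a and Ldha beside a partner of each, in every library, with the group mean and SD in black (n = 4 per group). Idh3a is at 0 in a Control-Veh and an HFpEF-TYA-018 library and Ldha spreads from 3.35 to 222 CPM, while Idh3b and Ldhb stay within narrow ranges.

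Balances between isozymes were read as the log2 ratio of counts within each library, which cancels any scaling of the library. Over 8 ratios and 3 comparisons, 24 exact permutation tests were made (two-sided), of which 0 passed 0.05 after adjustment and 6 reached 0.0286, the smallest p that 4 against 4 libraries allow (adjusted 0.114). Even a ratio at that smallest p did not pass, so these tests cannot show that a balance stayed the same. Got1/Got2 was -0.65 ± 0.13 in the controls, -0.29 ± 0.15 in the HFpEF-Veh mice and -0.55 ± 0.02 with TYA-018 (SD, n = 4). The cytosolic share of these transcripts was higher in each HFpEF-Veh library than in any of the 8 others, with differences of 0.36 from Control-Veh and -0.26 for HFpEF-TYA-018 from HFpEF-Veh (exact permutation p 0.0286 and 0.0286). Me1/Me3 was 0.25 ± 0.20, 0.82 ± 0.13 and 0.67 ± 0.15 in the same order. Its difference between HFpEF-Veh and Control-Veh was 0.57 (exact permutation p 0.0286). Pdk1/Pdk2 was -2.54 ± 0.19, -2.06 ± 0.22 and -1.95 ± 0.07, higher in every library of both HFpEF groups than in any control (exact permutation p 0.0286 in each). On the TPM scale the Pdk1/Pdk2 difference between HFpEF-Veh and Control-Veh was 0.27 (exact permutation p 0.286). Mdh1/Mdh2 was 0.44 ± 0.17, 0.26 ± 0.15 and 0.34 ± 0.13, with overlap between all groups. Ldha/Ldhb differed between HFpEF-TYA-018 and Control-Veh by 1.45 (exact permutation p 0.0286), a value that rests on the unstable Ldha counts.

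**Figure D5:**
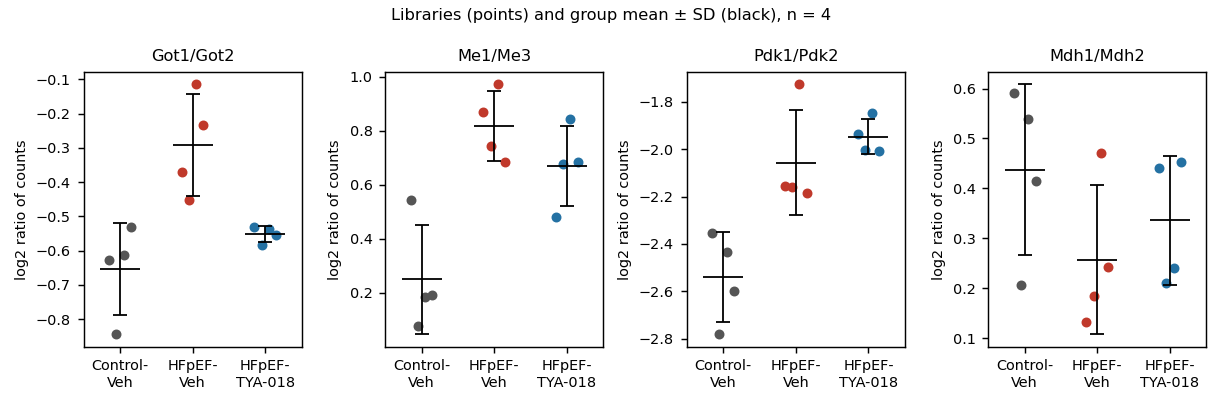
The log2 ratio of counts of 4 isozyme pairs in each library (vertical axis, not starting at 0), with the group mean and SD in black (n = 4 per group). Got1/Got2 is highest in HFpEF-Veh, Me1/Me3 in HFpEF-Veh lies above Control-Veh without overlap, Pdk1/Pdk2 is higher in both HFpEF groups, and Mdh1/Mdh2 overlaps between groups.

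Other genes of the same routes, 23 listed by function, were counted for context. In HFpEF-Veh against Control-Veh, 1 was called higher (Gpd2, the mitochondrial glycerol-3-phosphate dehydrogenase) and 3 lower (Sdhb, Ldhd and Slc25a11). Of all tested genes, 10.9% were called higher and 10.3% lower in that comparison. With TYA-018 against HFpEF-Veh, 7 were called higher (30.4%) and 0 lower, among them all 4 succinate dehydrogenase genes. Over all tested genes 8.93% were called higher and 10.4% lower. Sdhb, the iron-sulphur subunit of succinate dehydrogenase, had log2 changes of -0.39 with an adjusted p of 0.0262 by edgeR in HFpEF-Veh and 0.40 with an adjusted p of 0.0247 by edgeR with TYA-018. Slc25a11, the oxoglutarate carrier of the malate-aspartate shuttle, had -0.23 with an adjusted p of 0.0315 by edgeR and 0.41 with an adjusted p of 0.00285 by edgeR, and Ldhd, a mitochondrial lactate dehydrogenase for the D form, had -0.43 with an adjusted p of 0.0142 by edgeR and 0.52 with an adjusted p of 0.0072 by edgeR. HFpEF-TYA-018 against Control-Veh called 3 higher (Sdhc, Sdhd and Gpt2) and 1 lower (Pdk4), where 3.12% of all tested genes were called higher and 2.74% lower.

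The effective lengths that the deposited tables give shifted with the groups. The median log2 change of length over the 33 members was 0.07 in HFpEF-Veh against Control-Veh and -0.15 in HFpEF-TYA-018 against HFpEF-Veh, and over all tested genes 0.08 and -0.15. With TYA-018, 26 of the 33 members were shorter and 7 longer than in HFpEF-Veh. Exons of 7 members (Mpc1, Pdha1, Idh3b, Mdh1, Got2, Me1 and Me3) overlap a gene on the opposite strand. The library kit kept strand according to the study's methods, and whether counting used it is not given in the sources used here.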

How the data were processed

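RNA from 12 left ventricles was sequenced, 4 per group, with groups taken from the labels. The authors trimmed reads with fastp and quantified them with salmon (1.6.0 per the labels) and tximport against mouse GENCODE transcripts of GRCm38, using salmon's sequence, GC and position bias corrections. In the labels the build field names a human build, which the mouse gene names contradict. The deposited tables held estimated counts per gene (fractional where reads were divided between genes, not normalised), TPM, and another value, the effective length in bases. All columns were assigned to samples (0 left out).

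Rounded counts went into edgeR 4.0.16 under R 4.3.3 (filterByExpr, TMM, quasi-likelihood F test). The fit used 12 libraries in 1 model with 9 residual degrees of freedom, and Benjamini-Hochberg adjustment ran over the 14333 genes kept, which held 99.98% of counts. Two-sided tests were used. The fit was also run on simulated counts, whose outcome is not given here and bears on no call above. Intervals are 95% intervals of the fit. Isozyme ratios were compared by exact permutation. Alternatives were RLE size factors, no filter, no mitochondrially encoded genes, DESeq2 1.42.0, each pair of groups alone, effective length as an offset, limma 3.58.1 on log2(TPM + 1) or log2(TPM + 0.1), and TPM rescaled to protein-coding, nuclear genes as the study did, and leaving out each library. All 33 members were named by role, those called in any comparison with every library's value, and related genes with values if called in both of the first 2 comparisons, plus Pdk4. The other related genes called are given by name only, and 1 gene of that list is not reported here. The members, lists and tests were chosen with earlier results of these data known. Shared 31-base stretches were counted in GENCODE M21 transcripts.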

Additional observations from a re-analysis of the deposited data

Results flagged for a closer look

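In groups of 4 libraries, a value was flagged where its gap to the nearest other library, divided by the group's range, exceeded Dixon's 95% critical value. Of 123 groups of members and ratios examined, 5 were flagged, where chance flags about 1 in 20. In HFpEF-Veh, Pdk3 was at 1.84 CPM in V4 against 1.41 CPM in the nearest library, and Mdh2 was at 688 CPM in V3 against 793 CPM in the nearest. The log2 ratio Pdk1/Pdk2 in V3 was -1.73 against -2.16 in the nearest HFpEF-Veh library. In HFpEF-TYA-018, Dld was at 159 CPM in T1 against 172 CPM, and Pdk2 at 305 CPM in T3 against 319.7 CPM.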

How the results depend on the processing

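edgeR called 8, 19 and 3 members in the first comparison (HFpEF-Veh with Control-Veh), the second (TYA-018 with vehicle in the model) and the third (HFpEF-TYA-018 with Control-Veh). Of all tested genes, 21.2%, 19.3% and 5.86% were called. Leaving out 1 library gave 6 to 14, 11 to 18 and 2 to 4 members, with 14 without C1 in the first, and 11 without T1 and 12 without T2 in the second. Shares of all genes are not given for these fits. With effective length as an offset the counts were 3 (1 higher, 2 lower), 7 and 1, and on rescaled TPM 2 (0 higher, 2 lower), 5 and 1. The shares of all genes were 10.1%, 8.49% and 1.42% with the offset and 7.93%, 5.56% and 0.704% on rescaled TPM. limma on log2(TPM + 1), on log2(TPM + 0.1) and on genes of mean TPM 1 or above called 0 members in the first and 0 in the third comparison. On these 3 scales it called 23, 23 and 24 in the second, all higher, with 16.0%, 18.3% and 34.4% of all genes called. The median over all genes was a log2 change of 0.17, 0.34 and 0.34. Relative to that median, 31 of 33, 30 of 33 and 28 of 31 members were higher. DESeq2 called 12 and the fit of 2 groups alone 5 members in the third comparison, with 10.6% and 4.04% of all genes. The log2 change of Pdk2 in HFpEF-Veh turned to 0.015 with lengths as an offset and to 0.023 on rescaled TPM, and that of Idh3b with TYA-018 to -0.27 and -0.28. The cause was not tested. Of the 8, 19 and 3 calls, 6, 10 and 1 were kept in all 8 fits without a library. No paired analysis was possible because the groups share no animal numbers. With 4 libraries a group, changes near the threshold, such as Pdp2, are not settled.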
